A study of Mus musculus with 38 samples.

Results

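The Hox genes encode homeodomain transcription factors that specify position along the head-to-tail axis of the embryo and along the growing limb. The members described here are 38 mouse Hox genes, taken from the 45706 gene identifiers of the count tables by their symbols: the letters Hox, the cluster letter a to d, and a paralog number. In the mm10 build the Hox A members lie on chromosome 6 between 52162511 and 52260880, the Hox B members on chromosome 11 between 96194316 and 96368256, the Hox C members on chromosome 15 between 102921103 and 103036852, and the Hox D members on chromosome 2 between 74668310 and 74765142. Cluster A contributes 10 members, B 10, C 9 and D 9.

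RNA was measured in primary mouse embryonic fibroblasts, mixed connective tissue cells grown out of C57BL/6 embryos. Cells were either WT or RelA-TA-KI, the label of a homozygous knock-in in RelA, the NF-kappaB subunit that activates transcription of inflammatory genes. The labels do not spell out the TA change or give the embryo's age, sex or body region. All cultures were kept overnight in 0.5% calf serum before treatment. In the first table, WT and RelA-TA-KI cells received TNF, an inflammatory cytokine, at 10 ng/ml for 0.5, 1, 3 or 8 h or were left untreated, with 2 replicates in each of the 10 groups. In the second table, 1 library for each genotype was made untreated and after 0.5, 1, 3 or 8 h of LPS (100 ng/ml, a bacterial cell-wall component) or of Poly(I:C) (20 ug/ml, a mimic of viral double-stranded RNA), 18 libraries in all. The labels do not say whether the replicates came from separate cultures or embryos. Sex-linked RNA, given with the library facts, separates the WT replicates of the TNF table by source embryo. For the RelA-TA-KI replicates the p-values measure the spread between these libraries, which may be technical.

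Within a cluster, Hox genes are arranged in the order in which they are used along the body. Genes with low paralog numbers act in the hindbrain, neck and shoulder region, and those with high numbers act in the lumbar, sacral and genital regions and in the distal limb. Polycomb complexes hold the unused part of each cluster silent, Trithorax complexes keep the used part active, and cultured fibroblasts retain much of the Hox pattern of the site they came from. Hox proteins bind DNA together with cofactors of the Pbx and Meis families.

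Libraries held 6715022 to 9590932 counts in the TNF table and 7021799 to 9431334 counts in the second table, and Hox members took 0.0249 to 0.0573% and 0.0212 to 0.0493% of them. Fibroblast markers summed to 31030 to 45950 CPM (the usual per-library scaling of counts, here by the TMM-adjusted library total) over the TNF libraries and 43470 to 78880 CPM over the others. Macrophage markers, led by Lyz2, were also present in every library. In the TNF table WT replicate 2 held Y-linked Ddx3y RNA and little Xist, while the other replicates held Xist and little Ddx3y, so the source embryos of the WT replicates differed in sex. The knock-in is a sequence change that gene counts do not show. A check list of 6 RelA targets rose at 8 h of TNF in both genotypes, all 6 of 6, and all 6 were lower in RelA-TA-KI over the 5 times. Of all genes, 12% in WT and 21.6% in RelA-TA-KI were called higher at 8 h. Over the 5 times 5.54% were called lower in RelA-TA-KI.

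Promoter windows are shown for Hoxd13, Hoxd12 and Hoxa13, whose TNF responses differed between the genotypes, and for Hoxb8. Hoxb8 was called lower at 8 h of TNF, in calls lost in 4 (WT) and 5 (RelA-TA-KI) of 9 alternatives. It was called higher at 8 h of LPS and Poly(I:C) across both genotypes, and its WT rise with LPS depends on the scaling. Each window runs from 250 bases before to 50 bases after the RefSeq start in GRCm38.p6, 5′ to 3′ on the gene's strand. The windows are chr2:74667975-74668274 (plus strand), chr2:74674763-74675062 (plus), chr6:52260831-52261130 (minus) and chr11:96281655-96281954 (plus). Capitals mark matches to a kappaB consensus, TATAAA or the joint Hox and Pbx site TGATNNAT on either strand.
Hoxd13: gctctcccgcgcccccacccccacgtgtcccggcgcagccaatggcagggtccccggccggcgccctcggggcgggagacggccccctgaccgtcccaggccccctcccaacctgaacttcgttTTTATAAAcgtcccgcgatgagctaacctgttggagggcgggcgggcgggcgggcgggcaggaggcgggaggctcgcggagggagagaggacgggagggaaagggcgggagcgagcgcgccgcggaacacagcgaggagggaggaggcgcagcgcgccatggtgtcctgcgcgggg
Hoxd12: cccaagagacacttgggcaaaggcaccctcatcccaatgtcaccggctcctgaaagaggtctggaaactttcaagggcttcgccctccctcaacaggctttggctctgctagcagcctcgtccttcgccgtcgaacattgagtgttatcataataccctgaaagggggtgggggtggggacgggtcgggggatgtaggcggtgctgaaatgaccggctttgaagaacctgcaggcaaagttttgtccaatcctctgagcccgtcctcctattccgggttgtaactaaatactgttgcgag
Hoxa13: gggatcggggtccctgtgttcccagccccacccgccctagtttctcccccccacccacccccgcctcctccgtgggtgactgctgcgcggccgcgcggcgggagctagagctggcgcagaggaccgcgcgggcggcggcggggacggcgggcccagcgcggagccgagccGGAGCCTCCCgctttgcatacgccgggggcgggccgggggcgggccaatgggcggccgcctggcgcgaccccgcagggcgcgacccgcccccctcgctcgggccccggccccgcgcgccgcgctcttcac
Hoxb8: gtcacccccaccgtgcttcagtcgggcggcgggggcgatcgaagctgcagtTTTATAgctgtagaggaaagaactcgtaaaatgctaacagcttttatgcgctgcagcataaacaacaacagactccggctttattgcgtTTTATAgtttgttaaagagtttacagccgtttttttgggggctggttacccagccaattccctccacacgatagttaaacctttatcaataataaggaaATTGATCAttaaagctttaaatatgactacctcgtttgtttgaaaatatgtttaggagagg
The Hoxd13 window held TATAAA in both orientations, overlapping, with first bases at -126 and -124. Hoxa13 held the kappaB match, in the reverse orientation, with its first base at -80. Hoxb8 held TATAAA in the reverse orientation at -199 and -110 and TGATNNAT at -11, and the Hoxd12 window held no match. Among 24 windows of 22 Hox members, the kappaB consensus was found in 1, TATAAA in 4 and TGATNNAT in 4. Over all 32851 promoter windows of that length the shares were 8.46%, 13.6% and 8.85%. A match is a run of letters and not a shown binding site.

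Untreated fibroblasts of the TNF table expressed members of every cluster, and the highest levels belonged to genes of the distal limb and trunk. Levels were compared between genes as CPM per kilobase of exon, averaged over the 4 untreated libraries. Hoxd13, which patterns the digits and external genitalia, ranked first at 38.1 CPM per kb. Hoxb9, a gene of the thoracic skeleton, followed at 19.4. The next ranks were close together: Hoxc10 (hindlimb) at 12.5, Hoxc6 (thorax) at 12.4, Hoxa10 (lumbar region and uterus) at 12.3 and Hoxc8 (thorax) at 12.1. These 4 neighbours differed by less than the spread between their libraries. Hoxa13, which patterns the hand, foot and urogenital tract, stood at 9.58 CPM per kb, and Hoxa11 (forearm and uterus) at 8.02.

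**Figure D1:**
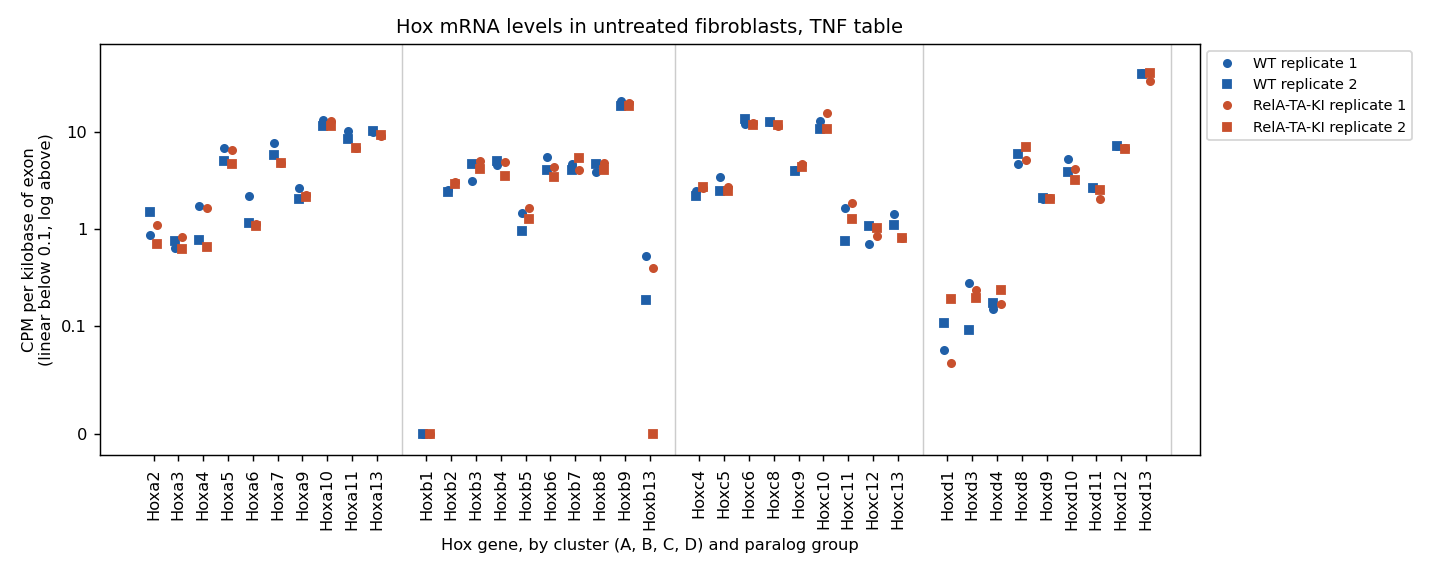
Level of each Hox gene in the 4 untreated TNF-table libraries, in CPM per kilobase of exon (log axis above 0.1); circles and squares are replicates 1 and 2, colours the genotypes. Hoxd13 is highest at a mean of 38.1 and Hoxb1 is at 0 in all 4.

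The lowest members were the head-end genes of cluster D and the ends of cluster B. Hoxd3, Hoxd4 and Hoxd1 averaged 0.200, 0.180 and 0.110 CPM per kb, and Hoxb13 averaged 0.275. Hoxb1, a hindbrain gene, had no count in any of the 20 TNF libraries. These 5 members did not pass the filter on low counts and were not tested, which left 33 members tested in the TNF table. Of the 38 members, 24 averaged at least 5 CPM over the TNF libraries. Fewer members, 28, were tested in the second table, because Hoxa2, Hoxa4, Hoxa6, Hoxc12 and Hoxc13 also fell below the filter there.

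Before treatment, no Hox member differed between the genotypes in edgeR's quasi-likelihood test with Benjamini-Hochberg adjustment (0 of 33; 0.00722% of all genes tested were called). DESeq2 also called 0, and 1 member had an unadjusted p under 0.05. That member was Hoxa7, a trunk gene, with 28.6 and 21.8 CPM in WT and 17.9 and 17.7 CPM in RelA-TA-KI. Its log2 difference was -0.49 (SE 0.17, adjusted p = 0.51).

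Some members differed between the replicates of a genotype across the times, at shares near those over all genes. In WT, 5 of 30 members tested were lower in replicate 2 than in replicate 1 (25% of all genes were called, 12.3% lower): Hoxc11 -0.69, Hoxb6 -0.42, Hoxa7 -0.32, Hoxa11 -0.31 and Hoxc10 -0.28 in log2 units. In RelA-TA-KI, 4 of 31 were lower in replicate 2 (12.5% of all genes were called, 7.1% higher and 5.44% lower): Hoxa11 -0.40, Hoxc10 -0.39, Hoxa10 -0.27 and Hoxb9 -0.17. DESeq2 called 0 and 1 of them. All 12 macrophage markers were higher in replicate 2 in each genotype; their part in these differences was not tested.

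By 8 h of TNF, Hoxa9, Hoxa10, Hoxa11 and Hoxa13 of cluster A and Hoxd10, Hoxd11, Hoxd12 and Hoxd13 of cluster D had fallen in both genotypes, and the response was more negative in RelA-TA-KI for 4 of them: Hoxa10, Hoxa13, Hoxd12 and Hoxd13. In WT, 12 of 33 members had fallen at 8 h and 0 had risen (8.8% of all genes were called lower). In RelA-TA-KI, 17 of 33 had fallen and 0 had risen (42.1% of all genes were called, 20.5% lower). The median log2 change of the tested members was -0.69 in WT and -0.61 in RelA-TA-KI, against -0.01 and -0.02 over all genes. The genotypes' own untreated libraries served as the baseline of every time point. In these bulk samples, fewer cells of a type and less RNA per cell cannot be told apart.

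By cluster, the falls at 8 h in WT took in 6 of 10 tested members of cluster A, 1 of 8 of B, 1 of 9 of C and 4 of 6 of D. The RelA-TA-KI falls took in 7, 1, 4 and 5 of these. By paralog number, 8 of 15 members numbered 9 to 13 fell in WT and 12 of 15 in RelA-TA-KI. Of those numbered 5 to 8, 3 of 11 fell in WT and 4 of 11 in RelA-TA-KI, and of those numbered 1 to 4, 1 of 7 in each. No test compared these shares.

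**Figure D2:**
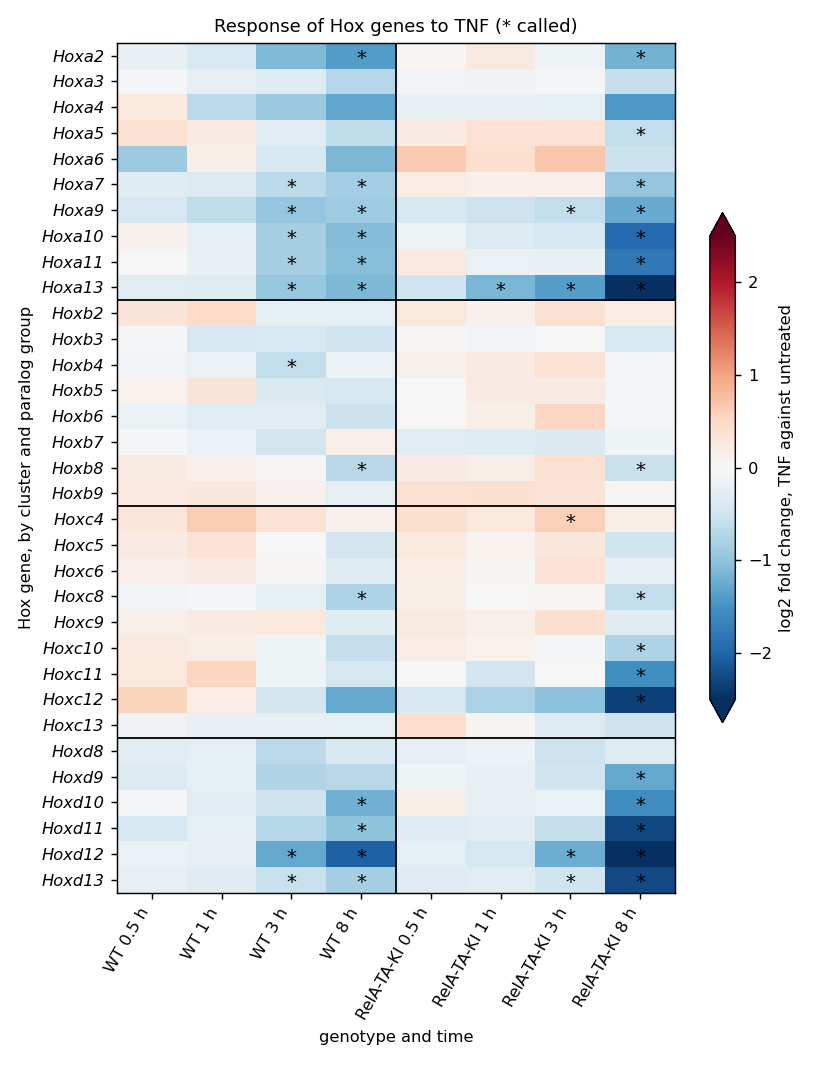
Log2 fold change of each tested Hox gene at 0.5, 1, 3 and 8 h of TNF against untreated cells of the same genotype, by cluster (horizontal lines) and paralog number; asterisks mark genes called by edgeR. The darkest blue lies at 8 h in Hoxd12 and Hoxa13 of RelA-TA-KI, and no gene of either genotype is called higher at 8 h.

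Members are described next by cluster, each with its CPM in replicates 1 and 2 of every group. In cluster D, Hoxd13 in WT stood at 99.6 and 97.6 CPM untreated, 82.1 and 89.2 at 0.5 h, 79.4 and 80.8 at 1 h, 60.3 and 73.6 at 3 h, and 58.5 and 53 at 8 h. Hoxd13 in RelA-TA-KI stood at 82.8 and 98.6 CPM untreated, 67.4 and 76.9 at 0.5 h, 73.4 and 78.6 at 1 h, 64.7 and 63.2 at 3 h, and 21.6 and 16.3 at 8 h. Both genotypes declined, the 8 h pairs lay below every untreated library, and the RelA-TA-KI pair at 8 h lay below all 18 other libraries. The log2 change at 8 h was -0.82 (SE 0.12, adjusted p = 0.00021) in WT and -2.26 (SE 0.13, adjusted p = 2.8e-08) in RelA-TA-KI, a 4.8-fold fall. At 3 h it was already lower in each genotype, with changes of -0.55 and -0.51.

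Hoxd12, a neighbour of Hoxd13 that acts in the distal limb, stood in WT at 17.8 and 18 CPM untreated, 15.3 and 17.1 at 0.5 h, 14.9 and 16 at 1 h, 7.67 and 7.09 at 3 h, and 5.0 and 3.65 at 8 h. Hoxd12 in RelA-TA-KI stood at 17.2 and 16.7 CPM untreated, 13.5 and 15.4 at 0.5 h, 14.2 and 10.7 at 1 h, 8.94 and 5.46 at 3 h, and 1.51 and 0.563 at 8 h. Its RelA-TA-KI fall was the largest among the tested members: the last RelA-TA-KI pair rests on 12 and 5 counts, from 140 and 144 untreated. The log2 change at 8 h was -2.05 (SE 0.25, adjusted p = 4.4e-05) in WT and -4.04 (SE 0.32, adjusted p = 3.5e-07) in RelA-TA-KI, a 16.5-fold fall. At 3 h the falls were alike in size, -1.28 and -1.24.

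Hoxd11, which patterns the forearm with Hoxa11, stood in WT at 11.2 and 11.2 CPM untreated, 7.3 and 9.09 at 0.5 h, 8.65 and 10.5 at 1 h, 6.34 and 7.2 at 3 h, and 6.92 and 4.27 at 8 h. Hoxd11 in RelA-TA-KI stood at 8.6 and 10.7 CPM untreated, 7.5 and 7.92 at 0.5 h, 7.35 and 8.51 at 1 h, 7.01 and 5.68 at 3 h, and 2.64 and 1.35 at 8 h. Its 8 h pairs were below the untreated pairs in both genotypes, and those of RelA-TA-KI were below every WT library. The log2 changes were -1.0 (SE 0.24, adjusted p = 0.009) in WT and -2.28 (SE 0.28, adjusted p = 2.5e-05) in RelA-TA-KI.

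Hoxd10, a gene of lumbar motor neurons and limb, stood in WT at 9.43 and 7.06 CPM untreated, 8.51 and 7.37 at 0.5 h, 7.76 and 5.7 at 1 h, 6.63 and 4.84 at 3 h, and 3.46 and 3.65 at 8 h. Hoxd10 in RelA-TA-KI stood at 7.49 and 5.8 CPM untreated, 7.88 and 6.82 at 0.5 h, 6.99 and 4.62 at 1 h, 7.13 and 4.79 at 3 h, and 2.01 and 2.48 at 8 h. Levels before 3 h overlapped the untreated range and the 8 h pairs lay below it, with changes of -1.2 and -1.55 (adjusted p = 0.007 and 0.00096). Hoxd9, a limb and lumbar gene, stood in WT at 4.35 and 4.44 CPM untreated, 3.51 and 3.42 at 0.5 h, 3.94 and 3.47 at 1 h, 2.8 and 2.47 at 3 h, and 2.43 and 3.02 at 8 h. Hoxd9 in RelA-TA-KI stood at 4.42 and 4.29 CPM untreated, 3.63 and 4.4 at 0.5 h, 3.13 and 4.5 at 1 h, 2.42 and 3.68 at 3 h, and 2.01 and 1.58 at 8 h. It fell in RelA-TA-KI (-1.28, adjusted p = 0.0015), and its WT change of -0.69 was not called (adjusted p = 0.066).

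Hoxd8, at the trunk end of the expressed part of the cluster, stood in WT at 12.8 and 16.1 CPM untreated, 9.73 and 14.1 at 0.5 h, 11.8 and 12.8 at 1 h, 9.88 and 8.49 at 3 h, and 10.2 and 11.8 at 8 h. Hoxd8 in RelA-TA-KI stood at 13.9 and 19.1 CPM untreated, 14.5 and 14.1 at 0.5 h, 14.6 and 15.4 at 1 h, 10.6 and 12.4 at 3 h, and 10.6 and 15.8 at 8 h. The 8 h pairs overlapped the untreated range in RelA-TA-KI and no response of Hoxd8 was called without a replicate block. With it the 3 h changes were called (-0.68 in WT and -0.52 in RelA-TA-KI, adjusted p = 0.0067 and 0.018). In sum the 9 members of cluster D went from 155.5 to 156.9 CPM untreated to 79.6 to 87.5 CPM at 8 h in WT. The RelA-TA-KI sum went from 136.0 to 157.1 CPM to 38.6 to 40.6 CPM.

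In cluster A, Hoxa13 in WT stood at 24.8 and 25 CPM untreated, 18.9 and 22.1 at 0.5 h, 20.9 and 19.5 at 1 h, 11.4 and 14.4 at 3 h, and 11.7 and 11.3 at 8 h. Hoxa13 in RelA-TA-KI stood at 22.2 and 22.7 CPM untreated, 16.1 and 15.5 at 0.5 h, 10.0 and 10.3 at 1 h, 10.5 and 6.8 at 3 h, and 4.27 and 3.6 at 8 h. The untreated pairs were close in the genotypes, and from 0.5 h the RelA-TA-KI pair lay below the WT pair at each time. Its fall in RelA-TA-KI was called at 1 h, -1.14 (SE 0.16, adjusted p = 0.001), when no other member was called in either genotype in the fit without a replicate block. By 8 h the change was -1.12 (SE 0.16, adjusted p = 0.00018) in WT and -2.51 (SE 0.18, adjusted p = 2.1e-07) in RelA-TA-KI, a 5.71-fold fall.

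Hoxa11 in WT stood at 23.1 and 19.3 CPM untreated, 22.2 and 20.1 at 0.5 h, 21 and 16.1 at 1 h, 13.7 and 10.3 at 3 h, and 11.5 and 8.67 at 8 h. Hoxa11 in RelA-TA-KI stood at 15.4 and 15.6 CPM untreated, 22.3 and 14.8 at 0.5 h, 15.6 and 12 at 1 h, 15.8 and 11.6 at 3 h, and 5.91 and 3.15 at 8 h. Replicate 2 was the lower of the pair at every treated time in both genotypes, and the 8 h pairs lay below the untreated ones. The 8 h changes were -1.06 in WT and -1.79 in RelA-TA-KI (adjusted p = 0.01 and 0.00028). Hoxa11 shares 35% of its exon bases with the antisense RNA Hoxa11os, and how the counting used strand is not given, so these values are uncertain.

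Hoxa10 in WT stood at 42.9 and 37.6 CPM untreated, 44.7 and 41.7 at 0.5 h, 36 and 31.8 at 1 h, 22.3 and 22.8 at 3 h, and 21.3 and 16.5 at 8 h. Hoxa10 in RelA-TA-KI stood at 42.5 and 37.8 CPM untreated, 40.0 and 33.1 at 0.5 h, 34.6 and 28.7 at 1 h, 32.6 and 27 at 3 h, and 12.1 and 8.89 at 8 h. At 3 h the WT pair was below the RelA-TA-KI pair, and at 8 h above it. The log2 change at 3 h was -0.83 (SE 0.16, adjusted p = 0.0024) in WT and -0.43 (SE 0.15, adjusted p = 0.064) in RelA-TA-KI, where it was not called without a replicate block and was called with it (adjusted p = 4e-04). The change at 8 h was -1.09 (SE 0.16, adjusted p = 0.00023) in WT and -1.94 (SE 0.17, adjusted p = 1.1e-06) in RelA-TA-KI.

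Hoxa9, known from blood progenitors and the lumbar spine, stood in WT at 14.8 and 11.4 CPM untreated, 10.1 and 9.35 at 0.5 h, 9.16 and 7.56 at 1 h, 7.82 and 5.59 at 3 h, and 6.92 and 7.16 at 8 h. Hoxa9 in RelA-TA-KI stood at 12.4 and 11.8 CPM untreated, 8.88 and 9.35 at 0.5 h, 8.68 and 8.27 at 1 h, 9.55 and 6.24 at 3 h, and 5.53 and 4.62 at 8 h. Every treated library was below both untreated libraries of its genotype. Its changes at 3 and 8 h were called in each genotype: -0.97 and -0.88 in WT, -0.62 and -1.26 in RelA-TA-KI. The RelA-TA-KI call at 3 h was lost in 5 of 9 alternatives.

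Hoxa7 in WT stood at 28.6 and 21.8 CPM untreated, 22 and 18.7 at 0.5 h, 22 and 17.7 at 1 h, 17.5 and 14.3 at 3 h, and 15.4 and 12.3 at 8 h. Hoxa7 in RelA-TA-KI stood at 17.9 and 17.7 CPM untreated, 23.1 and 17.5 at 0.5 h, 19.9 and 19.2 at 1 h, 20.2 and 18.7 at 3 h, and 9.43 and 8.78 at 8 h. From 0.5 h on each WT library was below the untreated library of its replicate, whereas RelA-TA-KI levels from 0.5 to 3 h lay around or above the untreated pair and those at 8 h lay below it. The 8 h changes were -0.85 in WT and -0.97 in RelA-TA-KI (adjusted p = 0.0029 and 0.00088). Hoxa7 shares 15.6% of its exon bases with the antisense RNA Hoxaas3.

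Hoxa5, which patterns the neck skeleton and the lung, stood in WT at 12.6 and 9.38 CPM untreated, 14.5 and 14.1 at 0.5 h, 14.9 and 10.4 at 1 h, 10.8 and 7.63 at 3 h, and 6.53 and 7.54 at 8 h. Hoxa5 in RelA-TA-KI stood at 12 and 8.69 CPM untreated, 11.4 and 12.3 at 0.5 h, 14.1 and 12.4 at 1 h, 14.3 and 12.4 at 3 h, and 6.91 and 6.53 at 8 h. Levels at 0.5 and 1 h lay mostly at or above the untreated pair and those at 8 h below it. The fall at 8 h was called in RelA-TA-KI, -0.62 (adjusted p = 0.04), with -0.63 in WT (adjusted p = 0.065). The RelA-TA-KI call was lost in 5 of 9 alternatives. Hoxa2, a gene of the hindbrain and the ear ossicles, stood in WT at 1.45 and 2.52 CPM untreated, 1.76 and 1.84 at 0.5 h, 1.78 and 1.36 at 1 h, 1.03 and 0.860 at 3 h, and 0.897 and 0.628 at 8 h. Hoxa2 in RelA-TA-KI stood at 1.84 and 1.16 CPM untreated, 1.25 and 1.76 at 0.5 h, 1.81 and 1.7 at 1 h, 1.33 and 1.45 at 3 h, and 0.503 and 0.788 at 8 h. Low as it was, it fell at 8 h in both, with changes of -1.4 in WT and -1.18 in RelA-TA-KI (adjusted p = 0.02 and 0.043). These Hoxa2 calls were lost in 5 and 6 of 9 alternatives.

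Hoxa3, needed for the thymus and parathyroid, stood in WT at 3.77 and 4.54 CPM untreated, 4.05 and 4.08 at 0.5 h, 3.05 and 3.96 at 1 h, 3.83 and 2.9 at 3 h, and 2.18 and 2.89 at 8 h. Hoxa3 in RelA-TA-KI stood at 4.91 and 3.71 CPM untreated, 3.25 and 4.95 at 0.5 h, 4.82 and 3.28 at 1 h, 4.71 and 3.79 at 3 h, and 3.77 and 2.03 at 8 h. The RelA-TA-KI groups overlapped, the WT pair at 8 h lay below its untreated pair, and none of its TNF responses was called. Hoxa4 and Hoxa6 averaged 1.44 and 1.14 CPM and were not called at any time without a replicate block. With it Hoxa4 was called in RelA-TA-KI at 8 h (-1.42, adjusted p = 0.029). In sum the 10 members of cluster A went from 133.7 to 156.6 CPM untreated to 67.9 to 78.3 CPM at 8 h in WT. The RelA-TA-KI sum went from 121.2 to 132.8 CPM to 39.4 to 50.0 CPM.

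**Figure D3:**
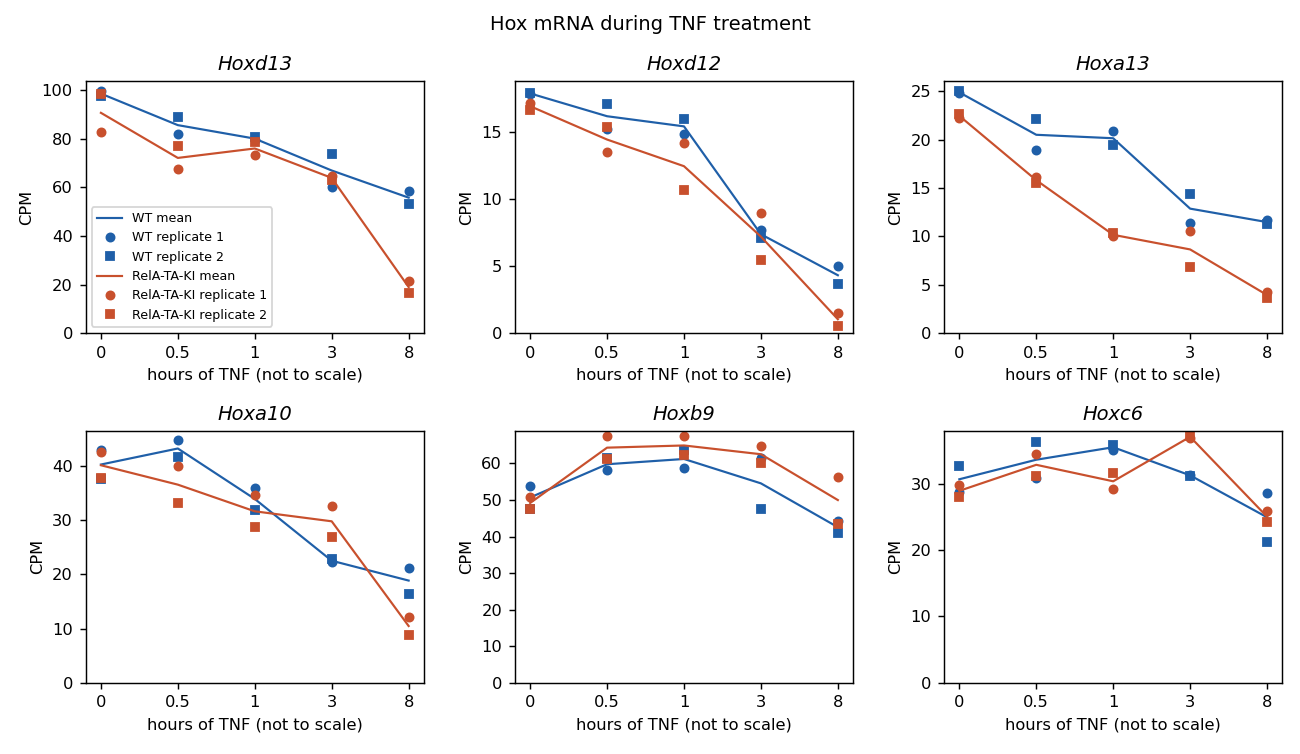
CPM of 6 Hox genes against hours of TNF (time axis not to scale); symbols are replicates, lines the mean of 2, colours the genotypes. Hoxd13, Hoxd12, Hoxa13 and Hoxa10 end lower in RelA-TA-KI than in WT at 8 h, while at 8 h Hoxb9 and Hoxc6 overlap between the genotypes.

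Cluster B held 1 called fall at 8 h in each genotype. Hoxb9 in WT stood at 53.8 and 47.6 CPM untreated, 58.1 and 61.5 at 0.5 h, 58.9 and 63.6 at 1 h, 61.6 and 47.5 at 3 h, and 44.2 and 41 at 8 h. Hoxb9 in RelA-TA-KI stood at 50.7 and 47.6 CPM untreated, 67.4 and 61.3 at 0.5 h, 67.6 and 62.2 at 1 h, 64.9 and 60.2 at 3 h, and 56.4 and 43.6 at 8 h. In RelA-TA-KI all treated pairs but the last lay above the untreated pair, and the change at 0.5 h was 0.39 (adjusted p = 0.18). No response was called in the fit without a replicate block. With the block Hoxb9 was called higher in RelA-TA-KI at 0.5, 1 and 3 h (adjusted p = 0.0098, 0.0073 and 0.0085). The change at 8 h was -0.25 in WT and 0.02 in RelA-TA-KI.

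Hoxb8, known from myeloid progenitors and grooming behaviour, stood in WT at 10.2 and 12.1 CPM untreated, 13.1 and 13.2 at 0.5 h, 11.3 and 13 at 1 h, 12.2 and 10.9 at 3 h, and 8.2 and 5.66 at 8 h. Hoxb8 in RelA-TA-KI stood at 12.4 and 10.5 CPM untreated, 15.4 and 11.1 at 0.5 h, 11.8 and 13.5 at 1 h, 15 and 14.8 at 3 h, and 8.92 and 6.64 at 8 h. Through 3 h no library was below the lower untreated one of its genotype. The 8 h pairs were lower, with changes of -0.69 in WT and -0.56 in RelA-TA-KI (adjusted p = 0.03 and 0.039). These calls were lost in 4 and 5 of 9 alternatives.

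Hoxb7, a trunk gene, stood in WT at 7.25 and 6.25 CPM untreated, 7.03 and 6.06 at 0.5 h, 6.49 and 5.45 at 1 h, 5.75 and 4.19 at 3 h, and 7.43 and 7.29 at 8 h. Hoxb7 in RelA-TA-KI stood at 6.26 and 8.23 CPM untreated, 6.13 and 5.94 at 0.5 h, 5.3 and 6.44 at 1 h, 4.96 and 6.35 at 3 h, and 6.41 and 6.98 at 8 h. No response was called, and the 8 h pairs lay within or just above the untreated range. Hoxb6, a gene of the trunk and lateral mesoderm, stood in WT at 10.7 and 7.97 CPM untreated, 9.19 and 7.37 at 0.5 h, 7.63 and 7.68 at 1 h, 9.73 and 5.91 at 3 h, and 7.81 and 4.9 at 8 h. Hoxb6 in RelA-TA-KI stood at 8.48 and 6.72 CPM untreated, 9.13 and 6.05 at 0.5 h, 8.68 and 8.02 at 1 h, 12.3 and 9.36 at 3 h, and 7.29 and 7.54 at 8 h. Its highest RelA-TA-KI pair was that at 3 h, which was called higher with a replicate block and not without it (0.51, adjusted p = 0.033), as was its lower WT level at 8 h (-0.56, adjusted p = 0.033).

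Hoxb5, which acts in the shoulder region and enteric neurons, stood in WT at 4.06 and 2.62 CPM untreated, 4.05 and 2.9 at 0.5 h, 3.56 and 4.58 at 1 h, 2.65 and 2.47 at 3 h, and 2.56 and 2.39 at 8 h. Hoxb5 in RelA-TA-KI stood at 4.54 and 3.48 CPM untreated, 4.13 and 3.85 at 0.5 h, 3.98 and 5.23 at 1 h, 4.47 and 4.79 at 3 h, and 3.9 and 3.94 at 8 h. No response was called. Hoxb4, known from blood stem cells, stood in WT at 11.6 and 12.9 CPM untreated, 10.9 and 12.5 at 0.5 h, 11.7 and 10.2 at 1 h, 8.26 and 7.84 at 3 h, and 12.3 and 9.55 at 8 h. Hoxb4 in RelA-TA-KI stood at 12.4 and 9.04 CPM untreated, 12.3 and 10.8 at 0.5 h, 11.3 and 13.2 at 1 h, 13.3 and 14.4 at 3 h, and 10.9 and 9.91 at 8 h. It fell in WT at 3 h, -0.61 (SE 0.18, adjusted p = 0.029), where the RelA-TA-KI pair was above its untreated pair, and 1 of the WT libraries at 8 h was back in the untreated range. The WT call at 3 h was lost in 6 of 9 alternatives.

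Hoxb3, a hindbrain and neck gene, stood in WT at 13.3 and 19.6 CPM untreated, 15.1 and 17.5 at 0.5 h, 11.8 and 13 at 1 h, 13 and 12.5 at 3 h, and 11.3 and 12.3 at 8 h. Hoxb3 in RelA-TA-KI stood at 21.1 and 17.4 CPM untreated, 18.6 and 20.7 at 0.5 h, 17.6 and 19.3 at 1 h, 20.2 and 18.4 at 3 h, and 16.2 and 13.4 at 8 h. Hoxb2, also a hindbrain gene, stood in WT at 8.7 and 8.27 CPM untreated, 10.7 and 10.4 at 0.5 h, 11.6 and 12.1 at 1 h, 7.67 and 6.77 at 3 h, and 5.89 and 8.42 at 8 h. Hoxb2 in RelA-TA-KI stood at 10.7 and 9.97 CPM untreated, 12.5 and 12.2 at 0.5 h, 10.1 and 12.2 at 1 h, 12.9 and 13.9 at 3 h, and 10.6 and 12.9 at 8 h. Neither was called at any time without a replicate block. With it Hoxb3 was called lower at 8 h (-0.50 in WT and -0.38 in RelA-TA-KI, adjusted p = 0.018 and 0.031). At 3 and 8 h the RelA-TA-KI pairs of both genes lay above the WT pairs. They share 52.9% and 27.3% of their exon bases with the antisense RNA Hoxb3os. Members of cluster B summed to 117.7 to 120.8 CPM untreated and 91.7 to 100.0 CPM at 8 h in WT, and to 113.0 to 127.5 and 105.2 to 120.6 CPM in RelA-TA-KI, where the ranges overlap.

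Cluster C held trunk and hindlimb genes. Hoxc8 in WT stood at 36 and 35.4 CPM untreated, 28.4 and 39.8 at 0.5 h, 31.9 and 38.2 at 1 h, 31 and 30.4 at 3 h, and 20.7 and 21.1 at 8 h. Hoxc8 in RelA-TA-KI stood at 32.6 and 32.9 CPM untreated, 34.8 and 38.2 at 0.5 h, 30.4 and 36 at 1 h, 33.2 and 34.4 at 3 h, and 22.9 and 19.9 at 8 h. It was lower at 8 h in each, -0.77 (SE 0.14, adjusted p = 0.0013) in WT and -0.61 (SE 0.14, adjusted p = 0.003) in RelA-TA-KI.

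Hoxc10 in WT stood at 24.5 and 20.4 CPM untreated, 29.5 and 23.4 at 0.5 h, 29 and 21.1 at 1 h, 21.8 and 19.9 at 3 h, and 15.4 and 14.2 at 8 h. Hoxc10 in RelA-TA-KI stood at 30.0 and 20.4 CPM untreated, 32.1 and 25.2 at 0.5 h, 27.1 and 26.1 at 1 h, 29.6 and 20.1 at 3 h, and 17.1 and 12.5 at 8 h. The 8 h pairs were the lowest of each genotype, with a called fall in RelA-TA-KI of -0.77 (adjusted p = 0.018) and -0.59 in WT (adjusted p = 0.1). Hoxc11, a hindlimb gene, stood in WT at 3.34 and 1.51 CPM untreated, 2.84 and 2.77 at 0.5 h, 3.82 and 2.97 at 1 h, 3.1 and 1.4 at 3 h, and 2.31 and 1.13 at 8 h. Hoxc11 in RelA-TA-KI stood at 3.69 and 2.55 CPM untreated, 4.13 and 2.09 at 0.5 h, 2.17 and 2.31 at 1 h, 4.35 and 1.89 at 3 h, and 1.26 and 0.901 at 8 h. The replicates of most groups lay far apart, and the RelA-TA-KI change at 8 h was -1.52 (SE 0.56, adjusted p = 0.043). This Hoxc11 call was lost in 5 of 9 alternatives. 

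Hoxc12, at the tail end of the cluster, stood in WT at 0.725 and 1.11 CPM untreated, 1.62 and 1.19 at 0.5 h, 1.65 and 0.496 at 1 h, 0.737 and 0.645 at 3 h, and 0.512 and 0.251 at 8 h. Hoxc12 in RelA-TA-KI stood at 0.860 and 1.04 CPM untreated, 0.875 and 0.550 at 0.5 h, 0.482 and 0.608 at 1 h, 0.121 and 0.780 at 3 h, and 0.126 and 0.225 at 8 h. These are few counts, and 1 treated RelA-TA-KI library lay within the untreated pair. The change at 8 h in RelA-TA-KI was -2.33 (SE 0.81, adjusted p = 0.033). Its call was lost in 5 of 8 alternatives.

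Hoxc6 in WT stood at 28.7 and 32.7 CPM untreated, 30.9 and 36.3 at 0.5 h, 35.1 and 35.9 at 1 h, 31.4 and 31.2 at 3 h, and 28.7 and 21.2 at 8 h. Hoxc6 in RelA-TA-KI stood at 29.9 and 28.1 CPM untreated, 34.5 and 31.2 at 0.5 h, 29.2 and 31.6 at 1 h, 37 and 37.2 at 3 h, and 25.9 and 24.2 at 8 h. In RelA-TA-KI the 3 h pair lay above and the 8 h pair below the untreated pair, and the first was called with a replicate block and not without it (0.36, adjusted p = 0.016). Hoxc9, a gene of thoracic motor neurons, stood in WT at 9.86 and 9.58 CPM untreated, 9.73 and 11.5 at 0.5 h, 10.9 and 11.5 at 1 h, 13 and 10.6 at 3 h, and 9.22 and 6.54 at 8 h. Hoxc9 in RelA-TA-KI stood at 11.2 and 10.5 CPM untreated, 13.6 and 11.8 at 0.5 h, 11.1 and 12.5 at 1 h, 13.3 and 15.4 at 3 h, and 8.92 and 8.78 at 8 h. It was not called at any time.

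Hoxc5, a neck gene, stood in WT at 10.6 and 7.56 CPM untreated, 9.86 and 10.9 at 0.5 h, 10.3 and 12.4 at 1 h, 9.59 and 8.38 at 3 h, and 9.48 and 3.65 at 8 h. Hoxc5 in RelA-TA-KI stood at 8.23 and 7.65 CPM untreated, 9.88 and 9.13 at 0.5 h, 8.44 and 8.39 at 1 h, 8.34 and 11 at 3 h, and 6.41 and 4.84 at 8 h. The WT replicates parted at 8 h, and no response was called. Hoxc4, the neck-end gene of the cluster, stood in WT at 6.24 and 5.65 CPM untreated, 7.16 and 7.37 at 0.5 h, 8.02 and 10.4 at 1 h, 6.78 and 8.38 at 3 h, and 5.89 and 6.91 at 8 h. Hoxc4 in RelA-TA-KI stood at 6.76 and 6.84 CPM untreated, 10.5 and 7.48 at 0.5 h, 8.08 and 8.27 at 1 h, 10.9 and 9.69 at 3 h, and 7.67 and 7.66 at 8 h. In the fit without a replicate block it was the 1 member called higher at any TNF time, in RelA-TA-KI at 3 h (0.59 (SE 0.18, adjusted p = 0.035)). That call was lost in 7 of 9 alternatives, with adjusted p up to 0.19. Hoxc13, a gene of hair and nails, averaged 2.36 CPM and was not called. Hoxc5 and Hoxc10 overlap on the same strand over 5.37% and 8.7% of their exon bases. The 9 members of cluster C summed to 116.6 to 123.4 CPM untreated and 76.8 to 95.7 CPM at 8 h in WT, and to 112.0 to 125.1 and 80.1 to 92.0 CPM in RelA-TA-KI.

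Before 8 h the calls were fewer. At 0.5 h 0 of 33 members were called in WT (1.04% of all genes called, 0.91% higher; 0 at an unadjusted p under 0.05) and 0 of 33 in RelA-TA-KI (1.07% called, 0.831% higher; 4 at an unadjusted p under 0.05). DESeq2 called 0 in both. At 1 h 0 were called in WT (3.81% called, 1.24% lower; 6 at an unadjusted p under 0.05, DESeq2 0) and Hoxa13 alone in RelA-TA-KI (3.28% called, 1.28% lower). At 3 h 8 of 33 had fallen in WT, with 9.32% of all genes called higher and 6.36% lower: Hoxd12, Hoxa9, Hoxa13, Hoxa10, Hoxa11, Hoxa7, Hoxb4 and Hoxd13, with changes from -1.28 to -0.55. The Hoxa11 and Hoxb4 calls were each lost in 6 of 9 alternatives. In RelA-TA-KI at 3 h 5 of 33 were called, with 10.9% of all genes called higher and 8.08% lower: Hoxc4 higher, and Hoxa13 (-1.38), Hoxd12, Hoxa9 and Hoxd13 lower. Over all genes, DESeq2, which differs from edgeR's fit in its scaling, its test and its filter, moved the share of calls that were higher at 1 h: from 67.6% to 77.7% in WT, and for RelA-TA-KI from 61% to 75.3%.

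Libraries with the same replicate number deviated together within a genotype, and a block for the number moved some counts. Calls not said to use the block are from the fit without it. With the block, WT at 1 h had 2 calls (Hoxa9 lower at -0.64 and Hoxc4 higher at 0.65). RelA-TA-KI had 3 at 0.5 h (Hoxd13 and Hoxa13 lower, Hoxb9 higher) and 4 at 1 h (Hoxa9, Hoxa10 and Hoxa13 lower, Hoxb9 higher). At 3 h RelA-TA-KI had 11: Hoxb9, Hoxb6, Hoxc6 and Hoxc4 higher, and Hoxd13, Hoxd12, Hoxd11, Hoxd8, Hoxa9, Hoxa10 and Hoxa13 lower. The block also added Hoxd8, Hoxd9 and Hoxd11 to the WT falls at 3 h, Hoxd9, Hoxa5, Hoxb3, Hoxb6 and Hoxc10 to those at 8 h, and Hoxb3 and Hoxa4 to the RelA-TA-KI falls at 8 h, and it lost none of the calls. Leaving out 1 library also moved counts. The WT count at 3 h was 5 without the 3 h replicate 1 and 4 without the 3 h replicate 2. The RelA-TA-KI count at 3 h was 3 without untreated or 3 h replicate 1, 2 without untreated or 3 h replicate 2, and 3 in DESeq2. At 8 h the RelA-TA-KI count was 11 without untreated replicate 1 or without 8 h replicate 2.

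The response itself differed between the genotypes for 4 members at 8 h. A test of the difference of the responses called 4 of 33 members lower and 0 higher (6.87% of all genes were called, 3.42% lower). In each, the RelA-TA-KI response was the more negative: Hoxd12 -2.0 (SE 0.44, adjusted p = 0.015), Hoxd13 -1.44 (SE 0.18, adjusted p = 0.00042), Hoxa13 -1.4 (SE 0.25, adjusted p = 0.0049) and Hoxa10 -0.85 (SE 0.24, adjusted p = 0.045). Hoxd11, at -1.28 (adjusted p = 0.059), was not called. With the replicate block Hoxd11 (adjusted p = 0.022) and Hoxa11 (-0.73, adjusted p = 0.043) were called too. Of the 33 members, 17 had a negative and 16 a positive difference, with a median of -0.05 against -0.01 over all genes. Of the 15 with paralog numbers 9 to 13, 13 were negative, and no test compared them with the others. Without WT 8 h replicate 1 or RelA-TA-KI 8 h replicate 2 the count was 2, with Hoxa10 and Hoxd12 lost, and DESeq2 called 4. Over 13 alternatives the Hoxa10 call was lost in 7 (adjusted p up to 0.18) and the Hoxd12 call in 3 (up to 0.1).

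At 3 h the difference of responses was called for 0 of 33 members (0.932% of all genes called, 0.202% higher and 0.73% lower; 3 members at an unadjusted p under 0.05, DESeq2 0). Of the 33, 30 had a positive difference, with a median of 0.31 log2 units against 0.01 over all genes. With the replicate block Hoxa7 (0.78, adjusted p = 0.0042) and Hoxb4 (1.0, adjusted p = 0.016) were called there. At 0.5 and 1 h 0 members were called (0.0506% and 0.311% of all genes, the latter 0.303% lower), with 1 member at an unadjusted p under 0.05 at each and 0 in DESeq2.

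Marker levels moved in the same libraries. In RelA-TA-KI at 8 h, 5 of 7 cartilage markers and 2 of 12 macrophage markers rose (21.6% of all genes were called higher). The cartilage sum went from 118.9 to 198.3 CPM untreated to 314 to 659.8 CPM, and from 178.9 to 180.3 to 100.3 to 174.6 CPM in WT. The macrophage sum went from 1203 to 2027 to 1864 to 3546 CPM in RelA-TA-KI and from 934 to 1427 to 1183 to 1882 CPM in WT. Neural and glial markers, mostly Nes, went from 131.3 to 159 to 387 to 412 CPM in RelA-TA-KI, where 2 of 6 tested rose. The fibroblast sum was 43390 to 45080 CPM untreated and 44670 to 45240 CPM at 8 h in RelA-TA-KI. No marker of these lists was at 0 in all TNF libraries, and the part of other cell types in the Hox changes was not tested.

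Averaged over the 5 times of the TNF table, 8 of 33 members differed between the genotypes (4.56% of all genes were called higher and 5.54% lower). Hoxb2, Hoxb3 and Hoxb5, from the head end of cluster B, were higher in RelA-TA-KI by 0.41, 0.40 and 0.44 (adjusted p = 0.003, 0.0044 and 0.027). Hoxa13 (-0.73 (SE 0.08, adjusted p = 2.8e-05)), Hoxd12 (-0.53), Hoxd11 (-0.43), Hoxd13 (-0.41) and Hoxa11 (-0.41), from the far ends of A and D, were lower. These averages include the 8 h responses above. Their p-values measure the spread between libraries, and the replicates are not known to be independent across times. The Hoxa11 call was lost in 12 of 23 alternatives, and the Hoxd11 and Hoxb5 calls in 7 each. The count was 5 without RelA-TA-KI 3 h replicate 2 or 8 h replicate 2, and 7 in DESeq2.

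In the second table each genotype has 1 library per condition, and the labels do not say how many preparations they came from. Over its 9 conditions, 22 of 28 members differed in edgeR's test, 14 higher and 8 lower in RelA-TA-KI (7.66% of all genes were called higher and 8.21% lower). The p-values measure how steady the difference was over the conditions. All 8 tested members of cluster B were called higher, from 0.92 (Hoxb7) to 1.22 (Hoxb2). In cluster C, Hoxc5, Hoxc8, Hoxc4, Hoxc6 and Hoxc9 were higher, from 0.52 to 1.29. In cluster D, Hoxd8 was higher (0.47) and Hoxd12, Hoxd13, Hoxd11 and Hoxd10 were lower, from -1.04 to -0.73. In cluster A, Hoxa13 (-1.12), Hoxa10, Hoxa11 and Hoxa9 were lower. The Hoxa9 call was lost in 5 of 11 alternatives and the Hoxc9 call in 2 of 11.

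**Figure D4:**
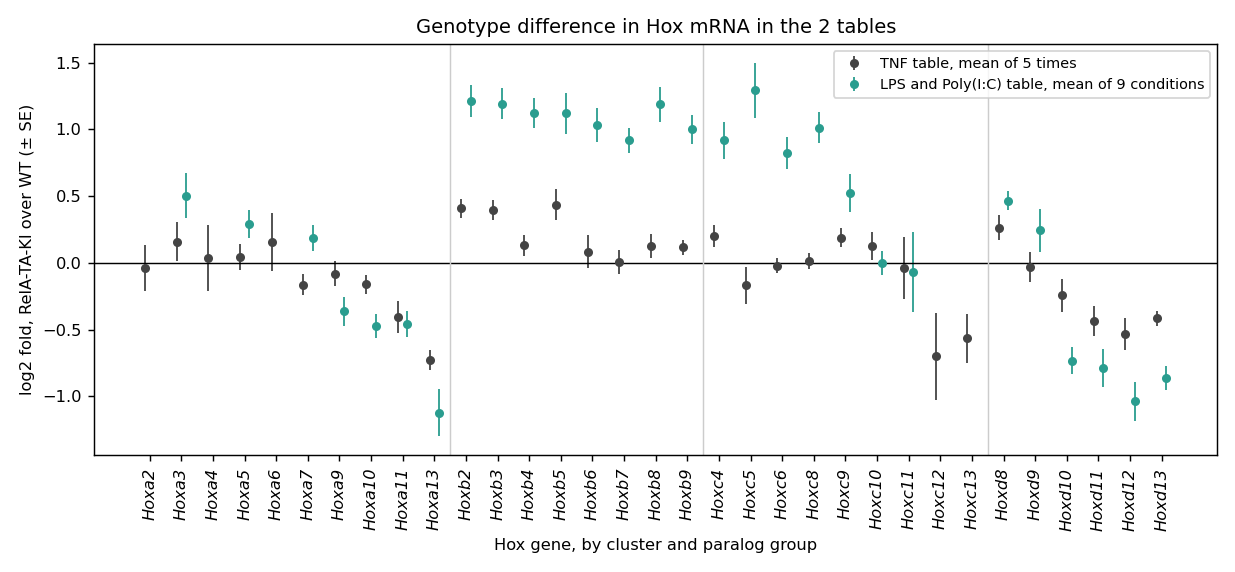
Log2 difference of RelA-TA-KI over WT for each tested Hox gene, with its standard error, averaged over the 5 TNF times (grey) and over the 9 conditions with LPS, Poly(I:C) or neither (green). Cluster B members are at 0.92 to 1.22 in green and at most 0.44 in the TNF table, and Hoxa13 is lowest in both.

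In this table WT libraries held both Xist and Ddx3y RNA, and RelA-TA-KI libraries held Ddx3y and little Xist, so the source embryos of the genotypes differed in sex make-up. Genotype and preparation cannot be told apart here. Of the macrophage markers 5 of 12 were lower in RelA-TA-KI and 0 higher (8.21% and 7.66% of all genes). The macrophage sums spanned 2850 to 4819 CPM over all libraries. Of the 10 fibroblast markers 2 were higher and 1 lower. The part of these in the Hox differences was not tested.

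At 8 h of LPS, compared with untreated cells across both genotypes, 6 of 8 tested members of cluster B and 1 of 7 of cluster C were called higher, and 7 of 7 of cluster A and 4 of 6 of cluster D lower. At 8 h of Poly(I:C), 4 of 8 of B and 2 of 7 of C were called higher, and 6 of 7 of A and 5 of 6 of D lower. No test compared the clusters. Over all 28 members the LPS counts were 7 higher and 11 lower, near the shares over all genes (30.9% called higher and 33.2% lower). The Poly(I:C) counts were 6 higher, also near the general share, and 11 lower (25.2% and 26.1% of all genes). The genotypes serve as the 2 libraries of a condition in this fit, and both agents share the untreated pair. TMM factors went from 1.183 (WT) and 1.165 (RelA-TA-KI) untreated to 0.7191 and 0.7189 at 8 h of LPS. At 8 h of Poly(I:C) they were 0.9229 and 0.7495. A lower factor gives a higher CPM for the same raw share, so late ratios in this table depend on the scaling.

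With LPS the risers were Hoxb2 (2.17 (SE 0.24, adjusted p = 1.4e-05)), Hoxb4 (1.3), Hoxb6 (1.3), Hoxc9 (1.26), Hoxb5 (1.16), Hoxb7 (1.13) and Hoxb8 (1.12). With Poly(I:C) they were Hoxb2 (1.59 (SE 0.25, adjusted p = 0.00034)), Hoxb8 (1.12), Hoxc9 (1.09), Hoxb7 (0.87), Hoxb6 (0.85) and Hoxc10 (0.47). These values average both genotypes. The Hoxc10 call with Poly(I:C) was lost in 2 of 3 alternatives. Its WT counts were 218 of 9431334 untreated and 149 of 7349177 at 8 h of Poly(I:C), so its WT rise in CPM depends on the scaling. In WT, raw counts from untreated to 8 h of LPS fell for Hoxc9 (81 to 61) and Hoxb8 (44 to 34). Their raw shares fell too (WT totals 9431334 and 8096105), so their WT rises in CPM depend on the scaling. WT counts were near level for Hoxb6 (26 to 24) and Hoxb5 (16 to 15). They rose for Hoxb2 (26 to 61), Hoxb4 (38 to 55) and Hoxb7 (22 to 30). In RelA-TA-KI, Hoxc9 went from 78 to 169 and Hoxb8 from 68 to 117. The LPS falls were led by Hoxd12 (-2.5 (SE 0.37, adjusted p = 0.00012)), Hoxa11 (-1.77), Hoxa10 (-1.37) and Hoxa9 (-1.36), followed by Hoxd9, Hoxa13, Hoxa7, Hoxa3, Hoxd8, Hoxd11 and Hoxa5. The Poly(I:C) falls were led by Hoxa9 (-1.99 (SE 0.24, adjusted p = 4.6e-05)), Hoxa11 (-1.63), Hoxd12 (-1.62) and Hoxa10 (-1.61), followed by Hoxd9, Hoxa3, Hoxa7, Hoxd11, Hoxd10, Hoxa5 and Hoxd8. Of the LPS falls, the Hoxd11 call was lost in 2 of 3 alternatives and the Hoxa3 call in 1 of 3.

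Single libraries of this table carry no replicate check and are given as values, in the order 0.5, 1, 3 and 8 h of each agent. Hoxb2 in WT had 2.33 CPM untreated, 2.7, 4.68, 8.43 and 10.5 over the LPS times, and 2.09, 2.68, 5.36 and 6.06 over the Poly(I:C) times. Hoxb2 in RelA-TA-KI had 5.69 CPM untreated, 4.99, 6.5, 23.6 and 25.8 over the LPS times, and 4.55, 4.84, 15.4 and 18.7 over the Poly(I:C) times. In both genotypes the 3 and 8 h libraries of each agent were the highest, and every RelA-TA-KI library from 3 h on was above every WT library.

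Hoxb3 in WT had 8.98 CPM untreated, 6.34, 7.25, 9.19 and 9.49 over the LPS times, and 6.98, 7.41, 8.04 and 8.87 over the Poly(I:C) times. Hoxb3 in RelA-TA-KI had 15.5 CPM untreated, 14.6, 12.2, 26.1 and 25.8 over the LPS times, and 12.9, 14.3, 28.2 and 23.6 over the Poly(I:C) times. The late RelA-TA-KI libraries were the highest, the WT values spanned 6.34 to 9.49 CPM, and neither shared 8 h response was called. Hoxb4 in WT had 3.41 CPM untreated, 4.05, 4.21, 8.89 and 9.49 over the LPS times, and 3.69, 4.98, 7.14 and 3.99 over the Poly(I:C) times. Hoxb4 in RelA-TA-KI had 8.24 CPM untreated, 7.65, 7.12, 22.6 and 18.8 over the LPS times, and 8.11, 7.08, 19.4 and 12.6 over the Poly(I:C) times. Here the 3 h libraries were higher than those at 8 h in all but WT with LPS.

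Hoxb5 in WT had 1.44 CPM untreated, 0.936, 1.52, 2.6 and 2.59 over the LPS times, and 0.997, 1.66, 1.53 and 2.81 over the Poly(I:C) times. Hoxb5 in RelA-TA-KI had 2.84 CPM untreated, 2.12, 2.89, 4.44 and 7.21 over the LPS times, and 3.36, 2.47, 5.34 and 4.41 over the Poly(I:C) times. Its late libraries were the highest in RelA-TA-KI. Hoxb6 in WT had 2.33 CPM untreated, 2.91, 3.51, 2.91 and 4.14 over the LPS times, and 2.89, 2.3, 3.44 and 3.4 over the Poly(I:C) times. Hoxb6 in RelA-TA-KI had 3.82 CPM untreated, 6.37, 4.75, 7.59 and 11.7 over the LPS times, and 4.25, 4.72, 8.59 and 8.03 over the Poly(I:C) times. The 8 h LPS library was highest in both genotypes.

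Hoxb7 in WT had 1.98 CPM untreated, 2.5, 2.11, 2.45 and 5.18 over the LPS times, and 2.59, 2.17, 3.06 and 3.7 over the Poly(I:C) times. Hoxb7 in RelA-TA-KI had 4.61 CPM untreated, 4.46, 4.34, 4.58 and 8.98 over the LPS times, and 5.04, 3.6, 4.64 and 8.35 over the Poly(I:C) times. It was level until 3 h and highest at 8 h with each agent. Hoxb8 in WT had 3.95 CPM untreated, 4.99, 4.21, 7.2 and 5.87 over the LPS times, and 4.49, 2.81, 6.89 and 5.62 over the Poly(I:C) times. Hoxb8 in RelA-TA-KI had 6.67 CPM untreated, 10.1, 6.09, 17.5 and 18.8 over the LPS times, and 8.01, 6.41, 19.3 and 19.2 over the Poly(I:C) times. The late RelA-TA-KI libraries stood apart from all others. Hoxb9 in WT had 14.5 CPM untreated, 14.6, 19.1, 13.6 and 7.94 over the LPS times, and 15.6, 15.7, 17.5 and 16.6 over the Poly(I:C) times. Hoxb9 in RelA-TA-KI had 26.5 CPM untreated, 33.7, 34.3, 30.8 and 29.3 over the LPS times, and 29.5, 26.2, 25.5 and 34 over the Poly(I:C) times. Every RelA-TA-KI library was above every WT library, and neither agent's response was called.

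In cluster C, Hoxc9 in WT had 7.28 CPM untreated, 5.09, 7.02, 6.28 and 10.5 over the LPS times, and 5.49, 6.26, 9.06 and 12.6 over the Poly(I:C) times. Hoxc9 in RelA-TA-KI had 7.65 CPM untreated, 7.43, 7.43, 12.6 and 27.1 over the LPS times, and 7.42, 5.96, 12.3 and 20.2 over the Poly(I:C) times. The 8 h libraries were the highest of each genotype and agent. Hoxc8 in WT had 13.5 CPM untreated, 11.3, 16.4, 10.7 and 7.08 over the LPS times, and 14.8, 12, 17.9 and 14.3 over the Poly(I:C) times. Hoxc8 in RelA-TA-KI had 28 CPM untreated, 26.6, 25.3, 23.6 and 26.5 over the LPS times, and 27.9, 24.5, 23.9 and 30.2 over the Poly(I:C) times. The genotypes did not overlap, and RelA-TA-KI stayed within 23.6 and 30.2 CPM.

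Hoxc6 in WT had 10.6 CPM untreated, 11.4, 13.9, 9.96 and 7.94 over the LPS times, and 11.6, 11.1, 12.4 and 11.7 over the Poly(I:C) times. Hoxc6 in RelA-TA-KI had 18.3 CPM untreated, 19, 20.6, 16.2 and 30.5 over the LPS times, and 17.9, 19.6, 18 and 21.7 over the Poly(I:C) times. All RelA-TA-KI libraries were above all WT ones. Hoxc5 in WT had 2.15 CPM untreated, 1.98, 1.4, 2.45 and 0.518 over the LPS times, and 1.79, 2.17, 2.3 and 2.81 over the Poly(I:C) times. Hoxc5 in RelA-TA-KI had 5.49 CPM untreated, 3.29, 5.16, 3.29 and 6.41 over the LPS times, and 4.45, 5.06, 4.06 and 6.93 over the Poly(I:C) times. All RelA-TA-KI libraries were again above all WT ones. Hoxc4 in WT had 4.22 CPM untreated, 2.08, 2.57, 2.15 and 2.42 over the LPS times, and 4.09, 3.45, 2.93 and 4.58 over the Poly(I:C) times. Hoxc4 in RelA-TA-KI had 6.28 CPM untreated, 6.37, 3.72, 4.44 and 8.02 over the LPS times, and 7.42, 5.96, 4.41 and 8.03 over the Poly(I:C) times. RelA-TA-KI was higher in each of the 9 conditions, with overlapping ranges.

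Hoxc10 in WT had 19.6 CPM untreated, 19.7, 17.8, 19.6 and 17.3 over the LPS times, and 19.6, 17.4, 20.9 and 22 over the Poly(I:C) times. Hoxc10 in RelA-TA-KI had 15 CPM untreated, 18.4, 19.6, 21.8 and 24.7 over the LPS times, and 16.8, 15.6, 19.4 and 25.8 over the Poly(I:C) times. The genotypes overlapped, and the 8 h RelA-TA-KI libraries were the highest. Hoxc11 in WT had 1.44 CPM untreated, 1.66, 2.22, 1.84 and 1.55 over the LPS times, and 1.1, 2.17, 1.79 and 1.63 over the Poly(I:C) times. Hoxc11 in RelA-TA-KI had 2.06 CPM untreated, 1.81, 1.86, 0 and 2.73 over the LPS times, and 1.19, 1.12, 2.32 and 1.73 over the Poly(I:C) times. These values rest on few counts and nothing was called.

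In cluster D, Hoxd13 in WT had 109 CPM untreated, 102, 110.4, 149.9 and 99.4 over the LPS times, and 104, 102, 135 and 109.6 over the Poly(I:C) times. Hoxd13 in RelA-TA-KI had 57 CPM untreated, 58.2, 59.7, 111 and 47.3 over the LPS times, and 52.9, 59.6, 96.6 and 39.5 over the Poly(I:C) times. In CPM the 3 h library was the highest with each agent in both genotypes. The WT counts were 1219 of 9431334 untreated and 978 of 7986135 at 3 h of LPS, so that WT rise depends on the scaling. At 8 h RelA-TA-KI was below its untreated library and WT was near it, and no shared 8 h response was called (-0.20 and -0.22, adjusted p = 0.39 and 0.36).

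Hoxd12 in WT had 18.1 CPM untreated, 17.1, 15.3, 5.82 and 3.8 over the LPS times, and 18.7, 16.7, 13.8 and 8.13 over the Poly(I:C) times. Hoxd12 in RelA-TA-KI had 9.12 CPM untreated, 9.45, 9.19, 3.87 and 1.12 over the LPS times, and 9.3, 7.08, 7.9 and 1.1 over the Poly(I:C) times. It was lower at 3 h of LPS in both genotypes, and the 8 h libraries of RelA-TA-KI were the lowest. Hoxd11 in WT had 7.54 CPM untreated, 8.73, 8.19, 5.52 and 4.49 over the LPS times, and 8.28, 7.02, 7.91 and 5.03 over the Poly(I:C) times. Hoxd11 in RelA-TA-KI had 5.88 CPM untreated, 3.82, 3.3, 2.44 and 3.37 over the LPS times, and 5.34, 5.74, 5.22 and 1.57 over the Poly(I:C) times. The lowest value was the 8 h Poly(I:C) library of RelA-TA-KI.

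Hoxd10 in WT had 9.16 CPM untreated, 8.21, 7.6, 6.43 and 6.39 over the LPS times, and 8.38, 7.41, 9.31 and 4.88 over the Poly(I:C) times. Hoxd10 in RelA-TA-KI had 5.49 CPM untreated, 5.63, 5.58, 2.29 and 4.33 over the LPS times, and 4.95, 4.72, 5.69 and 2.21 over the Poly(I:C) times. RelA-TA-KI was the lower genotype in every condition. Hoxd9 in WT had 4.4 CPM untreated, 4.16, 3.74, 1.69 and 2.07 over the LPS times, and 3.49, 3.32, 2.17 and 2.66 over the Poly(I:C) times. Hoxd9 in RelA-TA-KI had 5.59 CPM untreated, 5.31, 6.3, 1.29 and 2.08 over the LPS times, and 4.15, 4.39, 3.02 and 0.945 over the Poly(I:C) times. Its late libraries were the lowest in both genotypes. Hoxd8 in WT had 14.3 CPM untreated, 12.2, 13.5, 8.12 and 7.25 over the LPS times, and 14.7, 13.2, 8.93 and 8.43 over the Poly(I:C) times. Hoxd8 in RelA-TA-KI had 16.6 CPM untreated, 14.9, 18.8, 13.5 and 10.7 over the LPS times, and 19.2, 18, 15 and 11.8 over the Poly(I:C) times. It was lower late in WT, and RelA-TA-KI was the higher genotype in every condition.

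In cluster A, Hoxa13 in WT had 25.1 CPM untreated, 24.1, 23.3, 17.3 and 14.5 over the LPS times, and 24.9, 25.3, 22.7 and 25 over the Poly(I:C) times. Hoxa13 in RelA-TA-KI had 15 CPM untreated, 12.3, 11.8, 9.45 and 4.65 over the LPS times, and 11.4, 14.4, 12.8 and 2.83 over the Poly(I:C) times. Poly(I:C) at 8 h left WT at its untreated level and RelA-TA-KI at its lowest value. Hoxa11 in WT had 24.2 CPM untreated, 21.1, 20.8, 5.82 and 7.77 over the LPS times, and 19, 22.6, 11.5 and 9.46 over the Poly(I:C) times. Hoxa11 in RelA-TA-KI had 17.4 CPM untreated, 15.5, 16.8, 5.87 and 4.49 over the LPS times, and 15, 14.2, 10.3 and 4.09 over the Poly(I:C) times. From 3 h on it was low with each agent in both genotypes.

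Hoxa10 in WT had 59.1 CPM untreated, 58.2, 54.6, 12.3 and 27.1 over the LPS times, and 57.9, 51.6, 29.5 and 21.3 over the Poly(I:C) times. Hoxa10 in RelA-TA-KI had 42.8 CPM untreated, 42.2, 39.4, 14 and 13.1 over the LPS times, and 39.7, 41.3, 23.1 and 12.4 over the Poly(I:C) times. The drop lay between 1 and 3 h of LPS in both genotypes, with WT higher again at 8 h. Hoxa9 in WT had 16.3 CPM untreated, 12, 8.31, 2.15 and 6.04 over the LPS times, and 10.9, 12.3, 7.27 and 4.58 over the Poly(I:C) times. Hoxa9 in RelA-TA-KI had 10.9 CPM untreated, 9.77, 8.16, 1.43 and 4.49 over the LPS times, and 10.2, 11.5, 4.18 and 2.21 over the Poly(I:C) times. Its lowest LPS libraries were also those at 3 h.

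Hoxa7 in WT had 15.4 CPM untreated, 13.6, 12.9, 4.75 and 7.25 over the LPS times, and 12.7, 13.5, 9.95 and 8.43 over the Poly(I:C) times. Hoxa7 in RelA-TA-KI had 16.6 CPM untreated, 17.7, 13.2, 8.74 and 8.18 over the LPS times, and 15.9, 15.9, 9.99 and 6.14 over the Poly(I:C) times. Late libraries were the lowest and the genotypes overlapped. Hoxa5 in WT had 7.81 CPM untreated, 8.73, 7.96, 1.53 and 3.28 over the LPS times, and 7.38, 6.9, 3.7 and 3.84 over the Poly(I:C) times. Hoxa5 in RelA-TA-KI had 8.04 CPM untreated, 9.35, 9.09, 3.01 and 6.25 over the LPS times, and 10.2, 8.21, 4.06 and 4.25 over the Poly(I:C) times. The 3 h LPS libraries were the lowest of both genotypes. Hoxa3 in WT had 4.13 CPM untreated, 2.08, 3.04, 0.766 and 1.38 over the LPS times, and 1.99, 2.81, 1.53 and 0.887 over the Poly(I:C) times. Hoxa3 in RelA-TA-KI had 4.22 CPM untreated, 3.29, 5.16, 0.430 and 2.89 over the LPS times, and 3.26, 3.6, 1.39 and 2.52 over the Poly(I:C) times. At 3 h of LPS it was at its lowest in both, with higher values at 8 h.

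**Figure D5:**
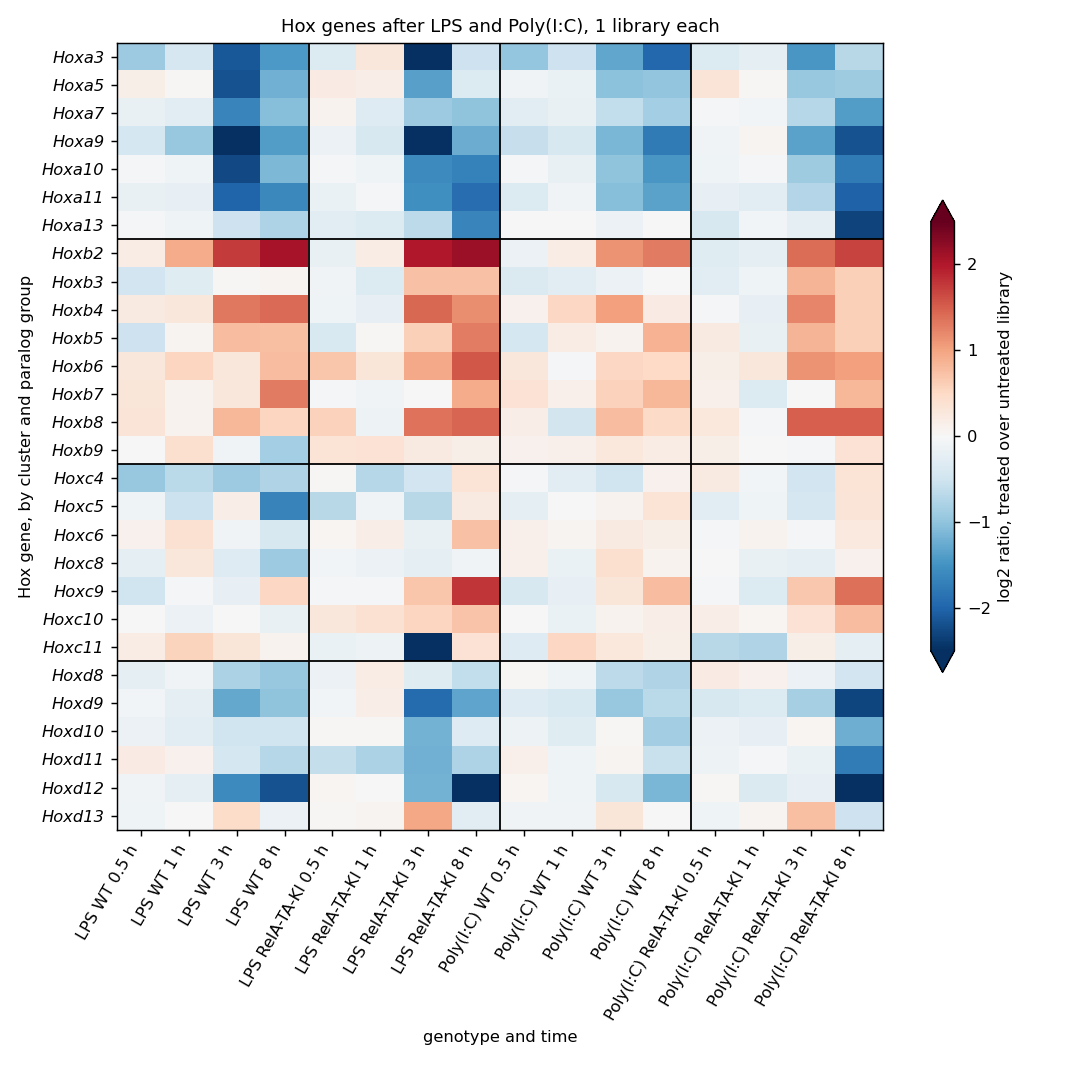
Log2 ratio of each Hox gene in each treated library over the untreated library of the same genotype, with 1 library per cell and no test. Values are TMM-scaled. Most of cluster A turns blue from 3 h on, most of cluster B turns red in RelA-TA-KI, and Hoxd13 is red at 3 h.

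The sum of Hox A in WT went from 154.7 CPM untreated to 45.5 at 3 h and 68.4 at 8 h of LPS, and in RelA-TA-KI from 119.4 to 43.8 and 45.7. Hox B in WT went from 39.0 CPM to 55.8 at 8 h of LPS and 51.0 at 8 h of Poly(I:C), and in RelA-TA-KI from 73.8 to 146.5 and 129.0. These sums are TMM-scaled. The WT factor was 1.183 untreated, 0.7191 at 8 h of LPS and 0.9229 at 8 h of Poly(I:C), so the WT Hox B rises depend on the scaling. As a raw share of counts, Hox B in WT was lower at 8 h of LPS than untreated. With TMM scaling the sum over all 38 members was 296.2 to 417.3 CPM over the 18 libraries. Its raw share of counts in WT went from 0.0493% untreated to 0.0212% at 8 h of LPS and 0.0309% at 8 h of Poly(I:C). In RelA-TA-KI it went from 0.044% to 0.0279% and 0.0253%. Among other cell type markers the endothelial sum reached 772 CPM at 8 h of Poly(I:C) in RelA-TA-KI, of which Kdr made up 761, while Pecam1 stood at 0.473 CPM and Emcn at 0.315 CPM. The part of this in the Hox changes was not tested. The low members Hoxa2, Hoxa4, Hoxa6, Hoxb13, Hoxc12, Hoxc13, Hoxd1, Hoxd3 and Hoxd4 averaged 0.116 to 1.08 CPM in this table. Hoxb1 had a count in 1 library.

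Among the cofactors that bind DNA with Hox proteins, 5 of 9 fell in WT and 4 of 9 in RelA-TA-KI at 8 h of TNF, and 0 rose (8.8% and 20.5% of all genes were called lower). Meis2, Pbx3 and Meis1 were in both counts, with -0.88, -0.80 and -0.79 in WT and -0.96, -0.92 and -0.78 in RelA-TA-KI. The difference of responses was called for 0 of 9 (6.87% of all genes were called, and 1 of the 9 had an unadjusted p under 0.05). Over the 9 conditions of the second table Meis1 (0.67), Meis2 (0.56) and Meis3 (0.28) were higher in RelA-TA-KI, 3 of 8 tested (7.66% of all genes were called higher). At 8 h of LPS Pbx3 (-1.70), Meis1 (-0.90) and Meis2 (-0.82) were among 5 lower, and Meis3 (0.56) was the 1 higher, of 8 tested (33.2% of all genes were called lower and 30.9% higher).

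Of 15 Polycomb genes 3 rose and 1 fell in WT at 8 h of TNF, and 2 rose and 6 fell in RelA-TA-KI. Over all genes 12% rose and 8.8% fell in WT, and 21.6% and 20.5% in RelA-TA-KI. In RelA-TA-KI Pcgf2 (-0.74) and Cbx2 (-0.60), both members of the PRC1 complex, were lower, and Phc2 (0.64) was higher. In WT Cbx7 (1.71) rose and Ezh2 (-0.42), the H3K27 methyltransferase, fell. At 8 h of LPS 4 rose and 6 fell, near the shares over all genes (30.9% and 33.2%), with Cbx2 at -2.42 and Ezh2 at -1.68. Of 10 Trithorax genes 1 rose and 1 fell in WT and 3 rose and 0 fell in RelA-TA-KI at 8 h of TNF. Wdr5, a subunit of MLL complexes, rose in both (0.40 and 0.53), and Kdm6b, an H3K27 demethylase, had a more positive response in RelA-TA-KI (0.45, adjusted p = 0.027).

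Retinoic acid sets the boundary of Hox expression in the embryo. Of its receptors, Rarb fell at 8 h of TNF with changes of -1.70 in WT and -1.87 in RelA-TA-KI, and Rara with -0.66 and -0.82. Rarg fell in RelA-TA-KI (-0.94), and its difference of responses was called (-0.75, adjusted p = 0.0058). The retinoic acid degrading enzyme Cyp26b1 rose in both (1.06 and 0.52). In all 5 of the 9 listed regulators were tested, with Cdx4 at 0 in every library of both tables.

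Genes inside and beside the clusters were looked at with the members. Evx2, a homeobox gene next to Hoxd13, stood in WT at 5.66 and 5.24 CPM untreated, 4.73 and 6.72 at 0.5 h, 2.67 and 3.96 at 1 h, 2.06 and 2.15 at 3 h, and 1.92 and 2.01 at 8 h. Evx2 in RelA-TA-KI stood at 4.67 and 6.84 CPM untreated, 4.0 and 4.51 at 0.5 h, 3.5 and 4.01 at 1 h, 2.54 and 2.12 at 3 h, and 0.251 and 0.450 at 8 h. It was lower at 8 h in both genotypes: the change was -1.46 in WT and -3.96 in RelA-TA-KI, and the difference of responses was -2.5 (adjusted p = 0.0098). In the second table Evx2 was lower in RelA-TA-KI (-1.15) and lower at 8 h of LPS (-3.33) and Poly(I:C) (-2.31).

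Of 8 tested genes at the cluster ends, 1 rose and 1 fell in WT and 1 rose and 2 fell in RelA-TA-KI at 8 h of TNF. Over all genes 12% rose and 8.8% fell in WT, and 21.6% and 20.5% in RelA-TA-KI, so these counts were near or below the general shares. Snx10, beyond the Hox A cluster, rose in both (1.07 and 0.47). Of 16 listed antisense and long noncoding RNAs, 6 were tested. Hoxa11os, transcribed against Hoxa11, fell in both (-1.53 in WT and -2.19 in RelA-TA-KI), and Hottip, beside Hoxa13, fell in RelA-TA-KI (-2.02). The Hottip change in WT was -1.64 and was not called (edgeR adjusted p = 0.059). Its difference of responses, -0.38, was not called either. In the second table Hoxb5os, against Hoxb5, was higher in RelA-TA-KI (1.02), and Hoxa11os was lower (-1.0).

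Of 28 tested other genes that record body position in fibroblasts, 1 rose and 9 fell in WT and 2 rose and 17 fell in RelA-TA-KI at 8 h of TNF (8.8% and 20.5% of all genes fell). In RelA-TA-KI the falls were led by Nkx3-2 (-2.73), Msx1 (-2.47), Tbx5 (-1.90), a forelimb gene, and Lhx2 (-1.80), a limb bud gene. The difference of responses was called lower for 4 (3.42% of all genes): Nkx3-2 (-2.70), Tbx15 (-0.87), Twist1 (-0.65) and Prrx1 (-0.44). Of 27 tested in the second table, 5 were higher and 12 lower in RelA-TA-KI (7.66% and 8.21% of all genes), among them Msx2 (-1.21), Nkx3-2 (-1.13), Tbx4 (-1.07), a hindlimb gene, and Tbx5 (-1.05).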

How the data were processed

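Raw counts per gene were deposited by the authors in 2 tables, 20 TNF libraries and 18 LPS and Poly(I:C) libraries. Per the labels' protocols, poly(A) RNA was made into stranded single-end 50 bp libraries. Per the submitters' processing notes, cutadapt 1.9.1, STAR, featureCounts 1.4.6, DESeq2 and the mm10 build were used; the strand setting of the counting is not given in the sources used here. Of 45706 gene identifiers, 45143 matched a symbol; 39 rows fit the Hox symbol rule, 38 are listed members and 1 is not reported here. Members, lists and naming rules were chosen with earlier results of these data known.

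Each table was fitted whole with edgeR 4.0.16 in R 4.3.3 (TMM scaling, filterByExpr, quasi-likelihood F test), with p adjusted by Benjamini-Hochberg over all genes tested (13843 and 12752) and called at 0.05. The TNF fit had a mean per group and 10 residual degrees of freedom. The other fit had genotype and condition terms and 8 residual degrees of freedom. Standard errors (SE) were taken from the F statistic, as the log2 fold change over root F. The common variation between replicates was 10.2% in the TNF table. In the second table, which has no replicates, the value was 12.7% and measures spread around the fit of genotype and condition. Members averaging 5 CPM or called in a comparison are given with every library, and up to 4 called genes of each other list are named. Alternatives were DESeq2 1.42.0, no filter, each library left out, a replicate block and a fit of only the groups compared. Deviations of libraries with the same replicate number correlated over 0.1 in 10 of 10 pairs of groups in each genotype (0.161 to 0.529 in WT, 0.161 to 0.37 in RelA-TA-KI), so the numbers were taken to pair libraries within a genotype; between genotypes 24 of 25 pairs were over 0.1 (median 0.212, lowest 0.006), and since not every pair was, they were not paired. On simulated counts with TNF-table depth (13638 genes), the RelA-TA-KI 8 h comparison recovered 67.7% of 2-fold and 88% of 4-fold changes. Promoter sequences are from RefSeq, and figures were drawn with matplotlib 3.10.9 in Python 3.11.15.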

Additional observations from a re-analysis of the deposited data

Results flagged for a closer look

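The response to TNF at 8 h differed between RelA-TA-KI and WT for 4 Hox genes by a test of the difference itself (edgeR's quasi-likelihood test, Benjamini-Hochberg adjusted over all genes). The log2 differences, RelA-TA-KI minus WT, were -1.44 for Hoxd13, -2.0 for Hoxd12, -1.40 for Hoxa13 and -0.85 for Hoxa10. Over 13 alternatives the call was kept in all for Hoxd13 and Hoxa13, lost in 3 for Hoxd12 (adjusted p up to 0.1) and lost in 7 for Hoxa10 (adjusted p up to 0.18). In each gene both RelA-TA-KI libraries at 8 h lay below both WT libraries at 8 h.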

How the results depend on the processing

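Of 121 results for single named Hox genes, 83 kept direction and call in every alternative run, 38 lost the call in at least 1 and 0 reversed. Counts of called members moved by over 1.5 times as follows, and the cause was not tested. DESeq2 called 3 in RelA-TA-KI at 3 h, and 0 in WT and 1 in RelA-TA-KI for the difference between replicates. With no filter on low counts there were 1 in RelA-TA-KI at 0.5 h, 2 at 1 h and 2 for the difference of responses at 3 h. With only the groups compared in the fit, WT at 3 h had 3 and the difference of responses at 8 h had 2. With a replicate block, nested in genotype or not, there were 2 in WT at 1 h, 3, 4 and 11 in RelA-TA-KI at 0.5, 1 and 3 h, and 2 for the difference of responses at 3 h; the unnested block gave 1 for untreated cells. The block moved no other count by over 1.5 times.

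Leaving out 1 library at a time gave 5 to 10 for the genotype difference over the TNF times, 4 to 6 and 8 to 13 for WT at 3 and 8 h, 2 to 3 and 11 to 15 for RelA-TA-KI at 3 and 8 h, 1 to 1 for RelA-TA-KI at 1 h, 0 to 1 and 2 to 5 for the difference of responses at 3 and 8 h, 3 to 5 and 2 to 4 for the difference between replicates in WT and RelA-TA-KI, and 20 to 22 for the genotype difference over the LPS and Poly(I:C) conditions. A group left with 1 library is assumed to vary like the others. In the TNF table Hoxb1, Hoxb13, Hoxd1, Hoxd3 and Hoxd4 had too few counts to be tested at this depth, and Hoxc12 was tested on few counts.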
